A study of Mus musculus with 8 samples.

Results

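The AP-1 transcription factor family and its relative Atf3 were followed in 8 melanoma grafts, of which 4 grew under an Ang2-blocking antibody (anti-Ang2) and 4 under its isotype control (IgG). The family was taken by name as 10 genes: Fos, Fosb, Fosl1 and Fosl2, Jun, Junb and Jund, Atf3 and Jdp2, and Batf. A gene counted as measured where the array annotation gave its symbol as the single gene of a probe set, which held for 9 of the 10 genes, out of 22836 genes tested in all. Fosl1 was not analysed here. Atf3 was the member with the largest difference, with about 2.04-fold more signal in anti-Ang2 tumours and no overlap between the groups. With a muscle marker covariate Fos (0.74 log2 units) stood above Atf3 (0.68). Among the 3 tumours numbered up to 10, only 1 of them anti-Ang2, Fosl2 (0.35) stood above Atf3 (0.26). Fos (1.5-fold) and Jun (1.18-fold) came next by p, and Batf was the only member whose mean was lower in anti-Ang2 tumours. None of the 9 passed the test over all genes.

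MT-ret tumours are melanomas that arise in mice carrying a Ret oncogene as a transgene under a metallothionein promoter. Fragments of such tumours had been placed on the flank of C57BL/6N mice, antibody was given from day 7 until the primary tumour was resected, and RNA of the whole tumour was hybridised to 1 Affymetrix whole-transcript array per tumour. The groups were thus anti-Ang2 in C57BL/6N hosts (n = 4) and IgG in C57BL/6N hosts (n = 4), with the same graft and schedule in each. Each array carries its own tumour number, but the labels do not say how many donor tumours the fragments came from, and p-values measure the spread between these 8 tumours. The deposited values are normalized linear intensities, reported here as log2, and every difference is anti-Ang2 minus IgG on that scale. Array medians lay between 6.09 and 6.15 log2 units. All 8 melanocyte markers were brighter than the median gene, and their list mean (± SD over 4 tumours) was 11.57 ± 0.04 for anti-Ang2 and 11.48 ± 0.28 for IgG. The RNA is from bulk tissue, in which fewer cells of a type and less RNA per cell cannot be told apart.

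AP-1 is a dimer of basic leucine zipper (bZIP) proteins. Fos proteins pair with Jun proteins, since Fos proteins do not form stable dimers among themselves, and the pair binds the sequence TGANTCA. Many of these genes are immediate early genes, transcribed within minutes of growth factor, stress or wounding signals and handled by short-lived transcripts. Atf3 and Jdp2 form dimers with Jun proteins and often repress, and Atf3 is itself a target of the integrated stress response through Atf4. Batf pairs with Jun proteins in lymphocytes and lacks a transactivation domain. Ang2, encoded by Angpt2, is a ligand of the endothelial receptor Tie2.

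The stretches before the start of 3 members with the smallest p, and of Batf as the member with a difference in the other direction, show the ATF and CRE type letters for which this family is a textbook case. The sequences are RefSeq promoter windows of build GRCm38.p6, each the last 150 bases before the gene's start, written along the gene's strand. They lie at chr1:191183334-191183483 on the minus strand for Atf3, chr12:85473740-85473889 on the plus strand for Fos, chr4:95052223-95052372 on the minus strand for Jun and chr12:85686570-85686719 on the plus strand for Batf. Capitals mark TGACGT on either strand in Atf3, Fos and Batf, TGATGCAA on either strand in Atf3, TATAAA in Fos and TGACATCA in Jun.
Atf3: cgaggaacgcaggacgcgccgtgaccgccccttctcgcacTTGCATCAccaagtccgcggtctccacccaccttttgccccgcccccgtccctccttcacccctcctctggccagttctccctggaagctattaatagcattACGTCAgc
Fos: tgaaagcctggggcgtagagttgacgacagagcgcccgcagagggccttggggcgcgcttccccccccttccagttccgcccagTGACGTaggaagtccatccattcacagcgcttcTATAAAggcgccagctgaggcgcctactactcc
Jun: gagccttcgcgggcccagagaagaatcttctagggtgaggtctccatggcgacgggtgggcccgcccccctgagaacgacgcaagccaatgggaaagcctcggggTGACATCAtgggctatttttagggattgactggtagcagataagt
Batf: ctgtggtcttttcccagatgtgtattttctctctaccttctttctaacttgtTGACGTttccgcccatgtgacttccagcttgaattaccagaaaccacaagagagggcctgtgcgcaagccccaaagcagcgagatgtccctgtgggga

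RefSeq windows were found for all 9 measured members, and letters were searched on both strands in the 250 bases before the start. TGACGT, the first letters of the cyclic AMP response element TGACGTCA, was present in 4 of the 9 members (Atf3, Fos, Jdp2 and Batf). By windows this was 4 of 11 member windows, against 6.47% of all 32851 promoter windows. In Fos it ended 61 bases before the start, followed by a TATAAA box that ended 28 bases before it. TGATGCAA, a form of the element that Atf4 binds with a C/EBP partner, was present in Atf3 (103 to 110 bases before the start) and in 1 of the 3 Jdp2 windows, against 0.791% of all windows. TGACATCA, the AP-1-like site of the Jun promoter, was present in Jun and in 2.93% of all windows. The canonical site TGANTCA (6.75% of all windows), the full element TGACGTCA (1.55%) and the CArG box bound by serum response factor (1.47%) were in none of the 9 members within these bases. Bases farther than 250 before the start were not searched, so sites there would have been missed, in Fos as in the others. ACGTG, also searched, was present in 2 of 11 member windows (Jdp2 and Jund, not Atf3), against 16.6% of all windows. TGACGT is contained in TGACGTCA, and a match of letters is not evidence of binding. Members with TGACGT included the highest differences, Atf3 and Fos, and the lowest ones, Jdp2 and Batf.

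Among the Fos genes, Fos itself had the largest difference. Fos, the founding member of the family, had 9.18, 9.01, 8.62 and 8.38 log2 units in the anti-Ang2 tumours, against 8.45, 7.83, 8.07 and 8.50 in the IgG tumours. Of the anti-Ang2 tumours 3 were above all IgG tumours, and the groups overlapped through anti-Ang2 replicate 4. Group means with their SD were 8.80 ± 0.36 for anti-Ang2 and 8.21 ± 0.32 for IgG (n = 4 each), a difference of 0.59 with a 95% interval of 0.16 to 1.01 (limma p = 0.0115, adjusted p = 0.639; two-sided exact permutation p = 0.0857). Fosb, a Fos paralogue that also has a short splice form without the C-terminal transactivation domain, had 6.41, 6.69, 6.34 and 6.30 in anti-Ang2 tumours, against 6.21, 6.56, 6.18 and 6.48 in IgG tumours. Of the IgG tumours 2 lay below all anti-Ang2 tumours, the other 2 lay among them, and the difference was 0.08 (interval -0.19 to 0.34; limma adjusted p = 0.922). Fosl2, which encodes Fra-2, the Fos relative with no strong transactivation domain, had 9.41, 9.09, 9.46 and 9.12 in anti-Ang2 tumours and 9.49, 8.98, 8.50 and 9.04 in IgG tumours. Its highest value was that of IgG replicate 1, while the other 3 IgG tumours lay below all anti-Ang2 tumours. The difference was 0.27 (interval -0.13 to 0.67; limma adjusted p = 0.813), or 0.43 without IgG replicate 1 and 0.10 without IgG replicate 3.

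Of the Jun proteins, Jun was the member whose groups did not overlap. Jun, the main partner of Fos, had 10.06, 9.86, 9.87 and 9.94 log2 units in anti-Ang2 tumours, against 9.83, 9.44, 9.72 and 9.77 in IgG tumours. The gap between the lowest anti-Ang2 and the highest IgG tumour was small, and IgG replicate 2 stood below the other IgG tumours. Group means were 9.93 ± 0.09 for anti-Ang2 and 9.69 ± 0.17 for IgG, a difference of 0.24 (interval 0.01 to 0.47; limma p = 0.0392, adjusted p = 0.699; exact permutation p = 0.0286, the smallest that the 70 assignments of 4 against 4 allow). Without IgG replicate 2 the difference was 0.16. Junb, which acts as a weaker activator than Jun and often opposes it, had 8.68, 8.55, 8.44 and 7.90 in anti-Ang2 tumours and 8.13, 8.11, 8.26 and 8.06 in IgG tumours. The IgG tumours lay close together (SD 0.08), 3 anti-Ang2 tumours lay above all of them, and anti-Ang2 replicate 4 lay below all of them. Over all 8 tumours the Junb difference was 0.26 (interval -0.08 to 0.59; limma adjusted p = 0.777; exact permutation p = 0.2). Without anti-Ang2 replicate 4 it was 0.42 (limma adjusted p = 0.344), and without anti-Ang2 replicate 1 it was 0.16. Jund, the member that is transcribed steadily rather than as an immediate early gene, had 7.00, 7.04, 6.94 and 6.92 in anti-Ang2 tumours and 6.79, 6.93, 6.83 and 6.73 in IgG tumours. Its spread within groups was among the smallest of all genes (percentile 4.43), and the groups overlapped only through IgG replicate 2. The difference was 0.15 (interval -0.03 to 0.33; limma adjusted p = 0.749; exact permutation p = 0.0571).

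Atf3 and Jdp2 are close relatives that compete for the same Jun partners. Atf3, induced by amino acid shortage, endoplasmic reticulum stress and many other insults, had 10.66, 10.04, 9.94 and 9.70 log2 units in anti-Ang2 tumours, against 8.48, 8.88, 9.52 and 9.36 in IgG tumours. The 4 anti-Ang2 tumours were all above the 4 IgG tumours, with anti-Ang2 replicate 1 the highest and IgG replicate 1 the lowest. Group means with their SD were 10.08 ± 0.41 for anti-Ang2 and 9.06 ± 0.48 for IgG (n = 4 each), a difference of 1.03 (SE 0.24; interval 0.49 to 1.56), or 2.04-fold with an interval of 1.4 to 2.96. The limma p was 0.00152 and the adjusted p 0.472, and the exact permutation p was 0.0286. By p, 67 genes came before Atf3, and by size 10 genes had as large a difference upward, Atf3 included. Atf3 also varied more within groups than 98% of genes. Jdp2 had 7.46, 6.80, 6.96 and 7.06 in anti-Ang2 tumours and 7.13, 7.14, 6.78 and 7.06 in IgG tumours. Its difference was 0.04 (interval -0.27 to 0.35; limma adjusted p = 0.97), and its sign turned when anti-Ang2 replicate 1 (-0.09) or IgG replicate 3 (-0.04) was left out.

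**Figure D1:**
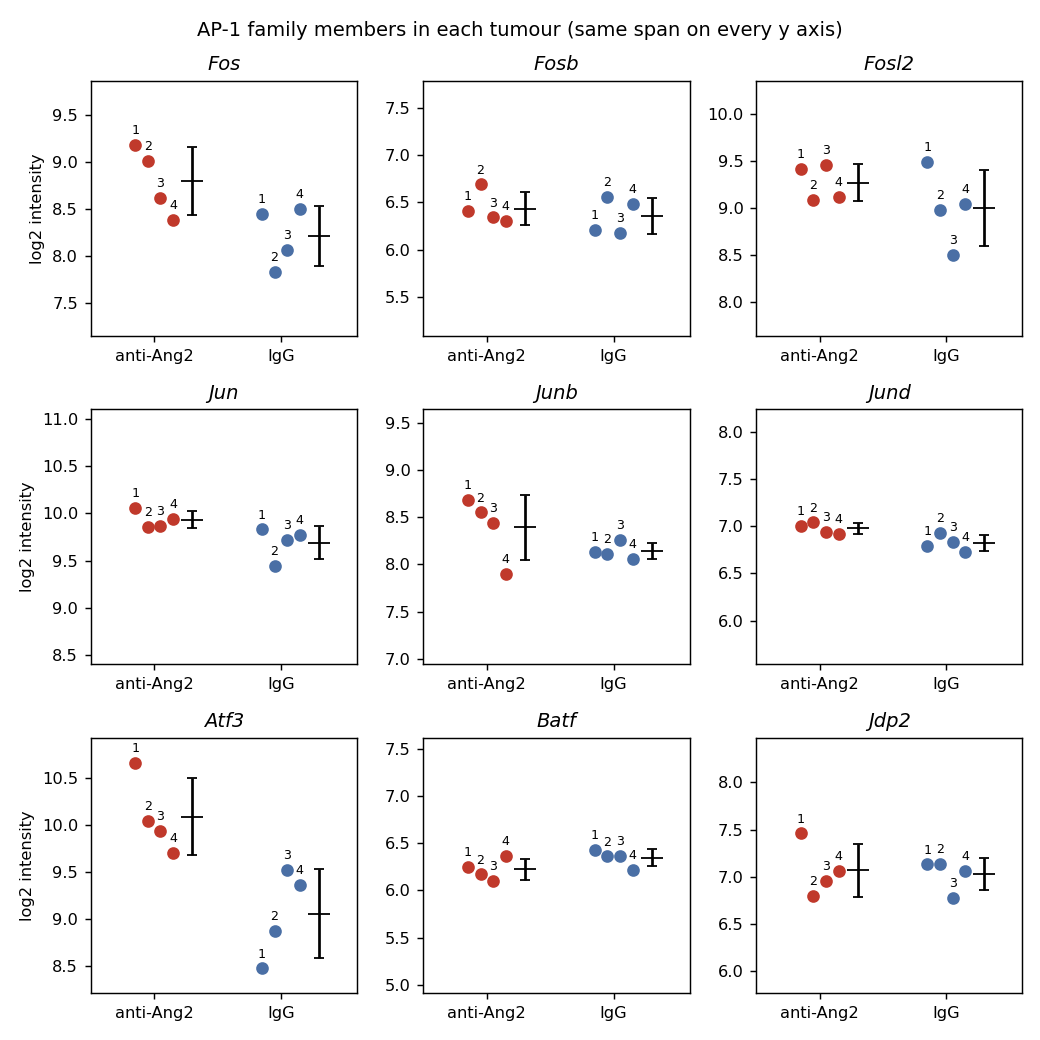
Log2 intensity (y axis) of the 9 measured AP-1 family members in each tumour, anti-Ang2 left and IgG right, with the replicate number beside each point and the mean ± SD as a black bar (n = 4 each). Every panel spans the same number of log2 units. Only Atf3 and Jun have all anti-Ang2 tumours above all IgG tumours.

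Batf, the lymphocyte member, had 6.25, 6.17, 6.10 and 6.37 log2 units in anti-Ang2 tumours, against 6.43, 6.36, 6.37 and 6.22 in IgG tumours. The groups overlapped: anti-Ang2 replicate 4 lay among the IgG tumours and IgG replicate 4 among the anti-Ang2 tumours. The difference was -0.12 (interval -0.32 to 0.08; limma adjusted p = 0.828; exact permutation p = 0.2), and it stayed negative with each tumour left out in turn (-0.17 to -0.08). The Batf signal was near that of the median gene (percentile 54.5 of gene means), and all 13 measured T cell markers were below the median gene. T cell marker means were 5.69 ± 0.02 in anti-Ang2 and 5.67 ± 0.02 in IgG tumours. Batf lies on chromosome 12 next to Jdp2 and Fos, which are consecutive protein-coding genes in the RefSeq annotation in the order Fos, Jdp2, Batf. These 3 neighbours had differences of 0.59, 0.04 and -0.12.

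As a family, 8 of the 9 measured members had a positive difference, where 53.6% of all genes did. The median of the 9 differences was 0.24, against 0.01 for all genes. With limma 0 of 9 members had an adjusted p under 0.05, as did 0 of the 22836 genes (0%). At an unadjusted p under 0.05 limma gave 3 of 9 members (Atf3, Fos and Jun), all higher, where 4.09% of all genes were higher at that level and 7.09% differed in either direction. Groups did not overlap for 2 members (Atf3 and Jun), both higher, against 2.28% of all genes with no overlap and higher in anti-Ang2 and 3.74% with no overlap in either direction. The 9 genes share tumours and were chosen with earlier results of these data known, so these counts are descriptions. Atf3 and Fos kept an unadjusted limma p under 0.05 with each of the 8 tumours left out in turn, and Jun did in 4 of the 8 runs. In the authors' deposited table, the ratio of anti-Ang2 over IgG means was 2.02 for Atf3 (p = 0.0374 in the authors' deposited table). The authors' deposited table gave Jund a ratio of 1.11 (p = 0.0274), Jun a ratio of 1.18 (p = 0.0481) and Fos a ratio of 1.51 (p = 0.066).

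**Figure D2:**
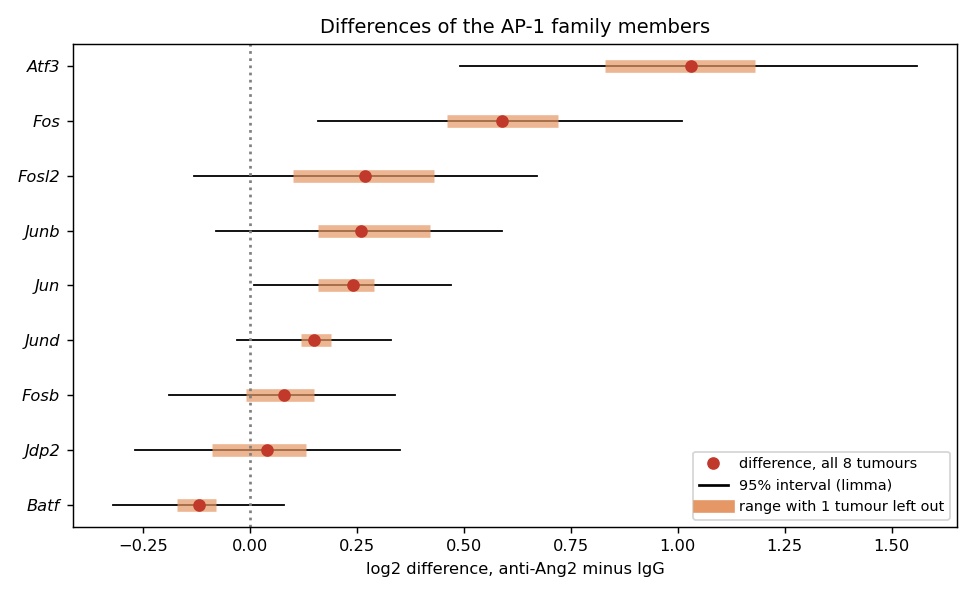
Log2 difference, anti-Ang2 minus IgG (x axis), of each measured member (rows), with the 95% interval of the limma fit as a thin line and the range of the difference with 1 tumour left out as a thick bar. Atf3 ranged from 0.83 to 1.18 and Fos from 0.46 to 0.72, while Fosb and Jdp2 crossed 0.

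Atf3 was compared with the rest of its family by the ratio of Atf3 to each other member within a tumour. Atf3 was singled out with earlier results of these data known, and all 8 ratios share its values. The p-values below are thus descriptions and do not test whether Atf3 stands apart. The log2 difference of Atf3 exceeded that of Batf by 1.15, of Jdp2 by 0.99, of Fosb by 0.95, of Jund by 0.88, of Jun by 0.78, of Junb by 0.77, of Fosl2 by 0.76 and of Fos by 0.44. Groups did not overlap for the ratios to Batf, Fosb, Jund and Junb, each with a two-sided exact permutation p of 0.0286 and an adjusted p of 0.0571 over the 8 comparisons. At least 5 of the 8 would have to reach the smallest p for an adjusted p under 0.05, and 4 did. For the ratio to Fosb, the lowest anti-Ang2 and the highest IgG tumour both stood at 3.35 log2 units after rounding. Without IgG replicate 3 the adjusted p of the permutation test was 0.0327 for 7 of the 8 comparisons, all but that with Fos. In no other run with 1 tumour left out did a comparison have an adjusted p under 0.05. Without anti-Ang2 replicate 1 the adjusted p of that test was 0.137 to 0.371. Without IgG replicate 1 the excess over Fos was 0.17 and that over Fosl2 0.40. The ratio of Atf3 to Fos was 1.29 ± 0.19 (log2) for anti-Ang2 and 0.85 ± 0.60 for IgG (exact permutation p = 0.2, adjusted p = 0.2).

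Tumour by tumour, anti-Ang2 replicate 1 was the highest of the 8 for 5 of the 9 members (Fos, Jun, Junb, Atf3 and Jdp2), and 8 of its 9 values were above the member's own mean. IgG replicate 3 was above the mean for 1 member and was the lowest tumour for 3. The mean over the 9 members was 8.34, 8.14, 8.07 and 7.97 in the anti-Ang2 tumours, against 7.88, 7.80, 7.80 and 7.91 in the IgG tumours. Of the members, 6 varied more within groups than the median gene, where the within-group SD was 0.15.

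**Figure D3:**
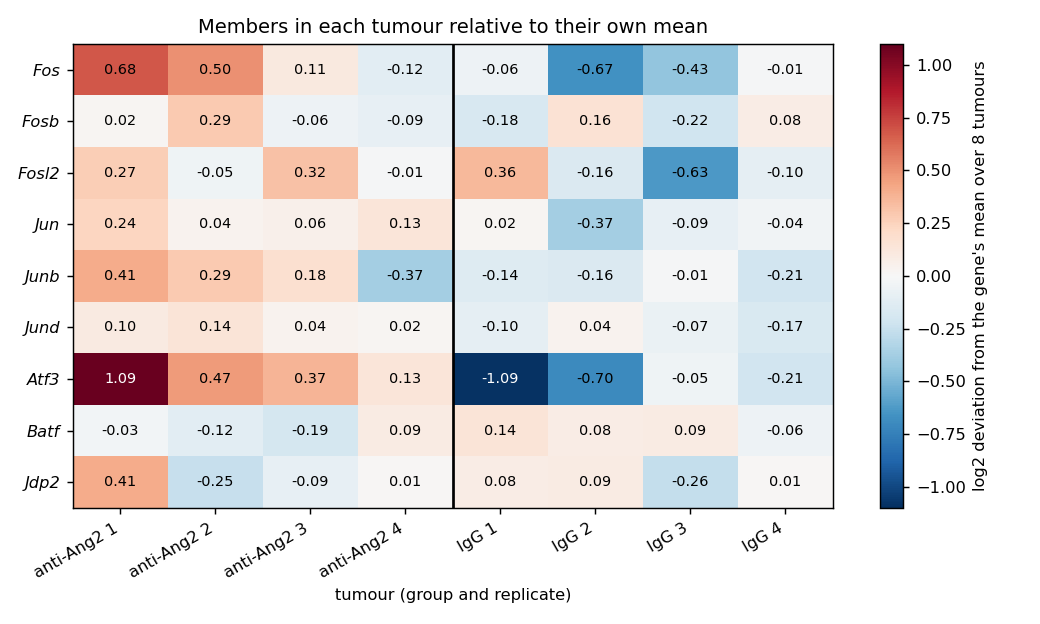
Log2 deviation of each member (rows) from its own mean over the 8 tumours (columns, anti-Ang2 left of the black line and IgG right of it), printed in each cell and coloured from blue (below) to red (above). Atf3 spans 1.09 in anti-Ang2 replicate 1 to -1.09 in IgG replicate 1, and Junb in anti-Ang2 replicate 4 stands at -0.37.

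Relations between members over the 8 tumours were computed for all 36 pairs. By Pearson's r the closest was that of the classical partners Fos and Jun (Pearson's r = 0.83 with an exact permutation p of 0.0094, adjusted 0.338; Spearman's rho = 0.71 with an exact p of 0.0576, adjusted 0.374, both by Benjamini-Hochberg over the pairs). Deviations from the group means gave r = 0.65 for this pair, and r was 0.43 without anti-Ang2 replicate 1 and IgG replicate 2, the tumours farthest from the Fos median. Leaving out the farthest tumours narrows the range of values, which can itself lower r. With 1 tumour left out in turn r ranged from 0.72 to 0.90. Fos and Atf3 had r = 0.73 (exact permutation p = 0.038, adjusted 0.451; rho = 0.74, exact permutation p = 0.0458, adjusted 0.374), with 0.39 for deviations from the group means and 0.40 without the same tumours. Fos and Junb had r = 0.73 (exact permutation p = 0.0414, adjusted 0.451; rho = 0.69, exact permutation p = 0.0694, adjusted 0.374), with 0.59 without those tumours. By Spearman's rho the closest pair was Jund and Atf3 (rho = 0.79, exact permutation p = 0.0279, adjusted 0.374; r = 0.64, exact permutation p = 0.0866, adjusted 0.451), with r = 0.53 without IgG replicates 1 and 4 and 0.06 for deviations from the group means. No pair passed the adjustment.

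Hypoxia response genes are those that HIF factors switch on at low oxygen, and Atf3 was set against them tumour by tumour. Its relation to the mean of 13 measured hypoxia genes was r = 0.94 (exact permutation p = 0.00154, adjusted 0.0969 over 63 relations of members to lists; rho = 0.98, exact permutation p = 0.000397, adjusted 0.025). It was 0.82 for deviations from the group means and 0.80 without anti-Ang2 replicate 1 and IgG replicate 1. With 1 tumour left out in turn r ranged from 0.89 to 0.98. The hypoxia list mean was 9.58, 9.23, 9.54 and 9.11 log2 units in anti-Ang2 tumours and 8.50, 8.89, 8.99 and 8.97 in IgG tumours. All 13 hypoxia genes had a positive difference, with a median of 0.47, above the 0.24 of the family. Of these, 9 were higher at an unadjusted limma p under 0.05, where 4.09% of all genes were, and 0 passed the adjusted threshold. The count was 5 with a muscle marker covariate and 6 without anti-Ang2 replicate 1 or IgG replicate 1. Spearman's relation of Atf3 to the hypoxia mean thus passed the adjustment and Pearson's did not. Atf3 and the hypoxia list were chosen with earlier results of these data known, and the adjustment does not cover that choice. Of the 8 other members, Batf had the r farthest from 0 (r = -0.74, exact permutation p = 0.0352, adjusted 0.554; rho = -0.60, exact permutation p = 0.132, adjusted 0.634), with -0.79 without anti-Ang2 replicate 1 and IgG replicate 1. By rho, Jun (0.76), Jund (0.74), Fos (0.71) and Junb (0.64) were farther from 0 than Batf, in the direction of Atf3. Their exact permutation p was 0.0368, 0.0458, 0.0576 and 0.0962, adjusted 0.454 for Jun, Jund and Fos and 0.604 for Junb. Deviations from the group means gave r = -0.11, 0.09, 0.11 and 0.53. Whether the members' relations differ was not tested.

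Skeletal muscle markers, of tissue that a flank graft can include, had lower means in anti-Ang2 tumours. All 12 muscle markers had a negative difference (median -1.52), 8 of them at an unadjusted limma p under 0.05, where 3.00% of all genes were lower. The groups overlapped for every marker. The list mean was 6.14, 7.49, 5.89 and 5.86 log2 units in anti-Ang2 tumours, against 9.70, 8.04, 6.14 and 7.37 in IgG tumours. The markers share these tumours, so the calls are not separate results. Their summed intensity was 718 to 2718 in anti-Ang2 and 902 to 13733 in IgG tumours. The relation of Atf3 to the muscle list mean was r = -0.77 (exact permutation p = 0.0257, adjusted 0.554; rho = -0.52, exact permutation p = 0.197, adjusted 0.688). It was -0.62 for deviations from the group means, and -0.21 without IgG replicates 1 and 2, the tumours with the most muscle signal. With the muscle list mean as a covariate the Atf3 difference was 0.68 (limma adjusted p = 0.61) the Fos difference 0.74 (limma adjusted p = 0.551) and the Fosl2 difference 0.53 (limma adjusted p = 0.589). Without IgG replicate 1 the Atf3 difference was 0.83. By the tumour numbers of the labels, the Atf3 difference was 1.54 among the 5 tumours numbered above 10 (3 anti-Ang2, 2 IgG) and 0.26 among the 3 numbered up to 10 (1 anti-Ang2, 2 IgG), and that of Fos was 0.80 and 0.10.

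**Figure D4:**
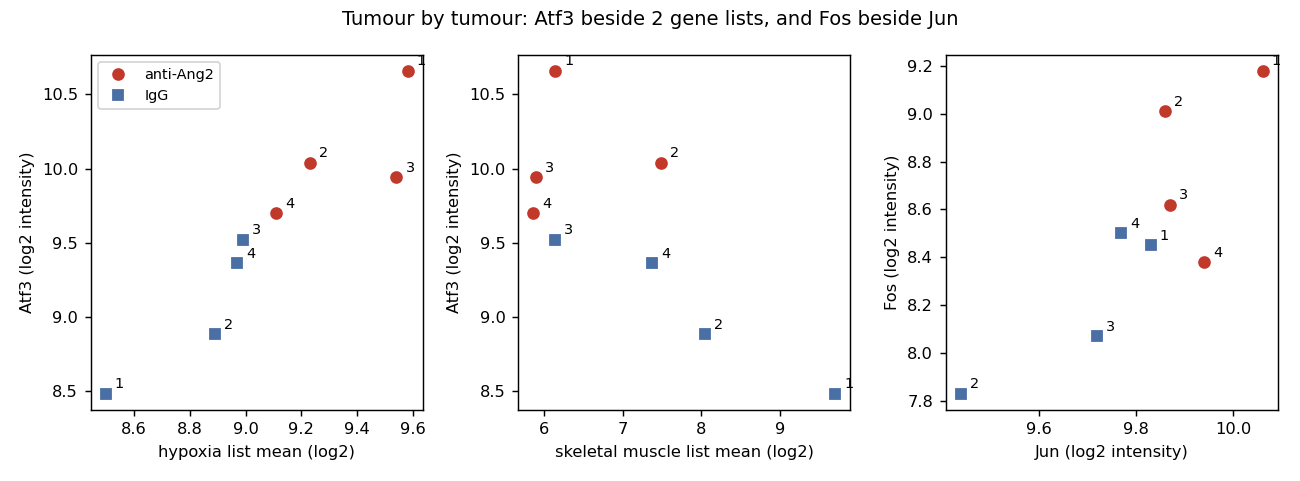
Each point is a tumour (red circles anti-Ang2, blue squares IgG, with the replicate number). Left, Atf3 log2 intensity against the mean log2 intensity of 13 hypoxia genes; middle, Atf3 against the mean of 12 skeletal muscle markers; right, Fos against Jun. Over all 8 tumours Atf3 is higher where the hypoxia mean is higher (r = 0.94), and IgG replicate 1 has the highest muscle mean and the lowest Atf3 value.

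Genes with the most similar pattern over the 8 tumours were sought among 7081 genes at least as bright and as variable as the median gene. For Atf3 these were Sertad1, a cell cycle co-regulator (r = 0.987), Egln3, the HIF prolyl hydroxylase PHD3 (r = 0.984), and Htr2a, a serotonin receptor (r = 0.975). Egln3 had 10.85, 10.34, 10.01 and 9.64 log2 units in anti-Ang2 tumours, against 8.59, 9.20, 9.63 and 9.55 in IgG tumours, the same order of tumours within each group as Atf3. The hypoxia list also holds Egln3, so its likeness to Atf3 is not separate from the relation to that list. For Fos they were Chsy3, a chondroitin sulfate synthase (r = 0.972), Lrrc40 (r = 0.965) and Ankrd50 (r = 0.963). For Junb they were Yy1, a zinc finger transcription factor (r = 0.961), Btbd6 (r = 0.956) and the noncoding host gene Snhg6 (r = 0.956). Batf was most like Mob2 (r = 0.938), Adgra2, an adhesion receptor of endothelium (r = 0.935), and Snhg10 (r = 0.907). These are the highest of many values over 8 tumours and are given as a description.

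Around the family, textbook AP-1 target genes had 13 positive and 7 negative differences among the 20 measured, none past the adjusted threshold. Of these, 9 were higher at an unadjusted limma p under 0.05 and 0 lower, with a median difference of 0.22, against the 4.09% and 3.00% of all genes at that level. The urokinase gene Plau had 7.84, 7.39, 7.38 and 7.09 log2 units in anti-Ang2 tumours and 6.86, 6.76, 7.06 and 6.85 in IgG tumours, with no overlap (difference 0.54, SE 0.14; limma adjusted p = 0.546). Mmp13, a collagenase, differed by 0.76 (SE 0.24; limma adjusted p = 0.616), and Vegfa, the endothelial growth factor that the hypoxia list also holds, by 0.43 (SE 0.13). Also among the 9, and named after their values were seen, were Ptgs2, which encodes cyclooxygenase-2 (1.00), heme oxygenase Hmox1 (0.66), the chemokine Ccl2 (0.64), stromelysin Mmp3 (0.52) and Mmp9 (0.31). Timp1 (-0.21) and Plaur (0.21), also named afterwards, did not reach that level. The count was 6 higher without IgG replicate 2, 9 higher and 2 lower without anti-Ang2 replicate 4, and 1 higher with the muscle list mean as a covariate. Of the 20 targets, 4 had a mean signal below that of the median gene (6.10 log2 units). Mmp9 averaged 6.02 in anti-Ang2 and 5.71 in IgG tumours, and Mmp13 averaged 6.52 and 5.77.

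Upstream of AP-1, 2 of 18 kinases and promoter factors were higher at an unadjusted limma p under 0.05 and 0 lower (median 0.06). Of all genes, 4.09% were higher and 3.00% lower at that level. Map3k1, a kinase that can activate the JNK pathway, had 8.96, 8.70, 8.83 and 8.35 log2 units in anti-Ang2 tumours and 7.96, 7.75, 8.03 and 8.20 in IgG tumours, with no overlap (difference 0.72, SE 0.14; limma adjusted p = 0.435). Srf, the serum response factor that acts on the Fos promoter, differed by 0.29 (SE 0.13; limma adjusted p = 0.701) and the kinase gene Rps6ka1 by 0.20. The count was 1 without anti-Ang2 replicate 1 or 3 or IgG replicate 2 or 4, and 1 with the muscle list mean as a covariate.

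Other immediate early genes went both ways. Of 23 measured, 4 were higher and 2 lower at an unadjusted limma p under 0.05, with a median of 0.07. The shares of all genes at that level were 4.09% higher and 3.00% lower. Ccn1, a matricellular protein gene, had 11.89, 10.56, 9.44 and 9.15 log2 units in anti-Ang2 tumours and 8.93, 8.38, 8.28 and 8.58 in IgG tumours (difference 1.72, SE 0.48; limma adjusted p = 0.578). Egr1, a zinc finger factor induced along with Fos, differed by 0.31 (SE 0.11; limma adjusted p = 0.668). Nr4a2, an orphan nuclear receptor gene, had 7.28, 8.07, 7.58 and 7.91 in anti-Ang2 tumours and 8.83, 8.72, 8.02 and 8.03 in IgG tumours, a difference of -0.69 (SE 0.22; limma adjusted p = 0.616). The others behind these counts, named after their values were seen, were Ccn2 (0.59), Klf6 (0.39) and Egr3 (-0.61). Without anti-Ang2 replicate 1 the counts were 2 higher and 1 lower, without anti-Ang2 replicate 2 they were 2 higher and 2 lower, without anti-Ang2 replicate 4 they were 5 and 3, and without IgG replicate 1 or 2 they were 3 and 1. The muscle covariate gave 2 higher and 0 lower.

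Partners and stress genes around Atf3 completed the comparison. Of 13 measured genes of the integrated stress response 5 were higher and 0 lower at an unadjusted limma p under 0.05 (median 0.18). For this and the next list, 4.09% of all genes were higher and 3.00% lower at that level. Atf4, the factor that induces Atf3, averaged 9.43 ± 0.24 log2 units for anti-Ang2 and 8.80 ± 0.14 for IgG (SD, n = 4 each), with no overlap (difference 0.63, SE 0.13; limma adjusted p = 0.435). Sesn2, a nutrient sensor (0.29, SE 0.10), and Trib3, a pseudokinase (0.53, SE 0.19), followed, and the chaperone gene Hspa5, named after its value was seen, stood at -0.43. The other 2 behind the count were Ddit3 and Chac1 (0.34), a glutathione-degrading enzyme gene, the second named after its value was seen. Without anti-Ang2 replicate 1 the counts were 2 higher and 2 lower, without anti-Ang2 replicate 2 or IgG replicate 1 or 2 they were 3 and 0, without IgG replicate 4 they were 6 and 2, and with the muscle list mean as a covariate 1 was higher and 0 lower. Among 16 other bZIP genes 4 were higher and 1 lower (median 0.08), led by Atf4, Cebpg (0.25), a C/EBP partner of Atf4, and Ddit3 (0.59), which encodes CHOP. Maff (0.29), named after its value was seen, was also among the higher ones. The higher count was 1 without anti-Ang2 replicate 1 or 3, and the counts were 2 higher and 0 lower with the muscle list mean as a covariate.

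**Figure D5:**
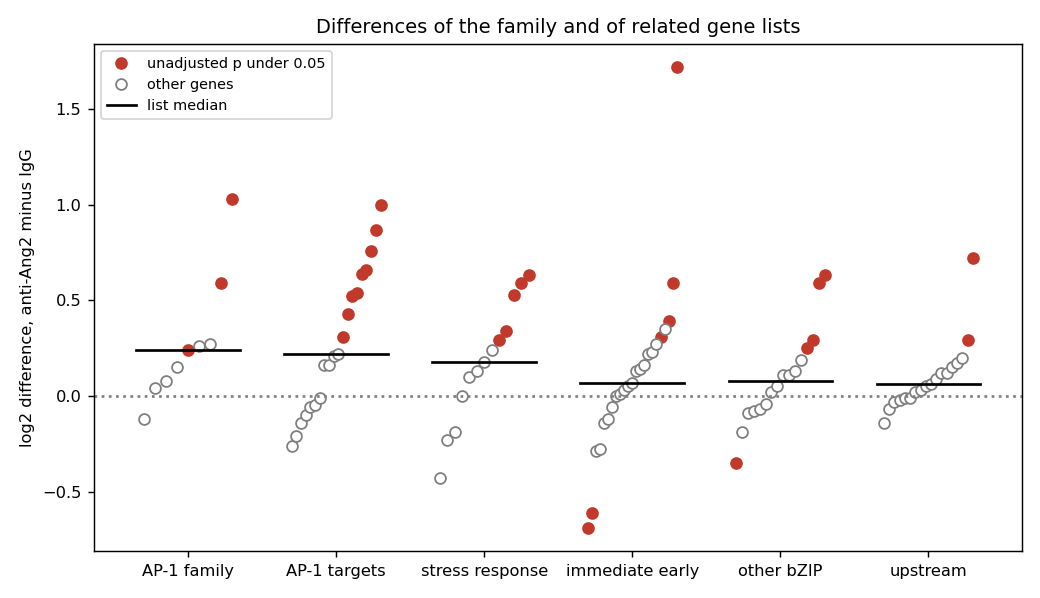
Log2 difference, anti-Ang2 minus IgG (y axis), of every measured gene of the AP-1 family and of 5 related lists (x axis). Filled points have an unadjusted limma p under 0.05 and open points do not. Black bars are list medians, from 0.24 for the family to 0.06 for the upstream genes. The hypoxia list, with a higher median of 0.47, is not drawn. None of the genes passed the adjusted threshold.

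Markers of other cells that a flank graft can hold were read beside these values. Neutrophil markers were 8 of 8 positive with a median of 0.10 and 0 at an unadjusted p under 0.05 in limma, and 7 of the 8 were below the median gene. Macrophage markers were 5 of 10 positive (2 higher, Mrc1 at 0.91 and Cd68 at 0.42, and 1 lower, Mertk at -0.60), with a summed intensity of 2522 to 3285 in anti-Ang2 and 2320 to 4120 in IgG tumours. Endothelial markers were 6 of 7 positive (median 0.22; Pecam1 at 0.38 was the 1 with an unadjusted limma p under 0.05, Robo4 stood at 0.22 and Cdh5 at 0.30), and their summed intensity was 1183 to 1736 in anti-Ang2 and 1086 to 1349 in IgG tumours. Fibroblast markers were 4 of 6 positive (median 0.15) and B cell markers 3 of 6, the B cell markers all below the median gene. At an unadjusted limma p under 0.05, 4.09% of all genes were higher and 3.00% lower. Of the relations of members to the neutrophil, macrophage, endothelial, T cell and melanocyte list means, among the 63, none passed the adjustment and 4 had an unadjusted exact permutation p under 0.05 by r or rho. Fos with neutrophil markers had r = 0.75 (exact permutation p = 0.0309, adjusted 0.554) and rho = 0.48 (exact permutation p = 0.243, adjusted 0.729), with r = 0.43 without anti-Ang2 replicate 1 and IgG replicate 3. Fosl2 with macrophage markers had r = 0.56 (exact permutation p = 0.152, adjusted 0.562) and rho = 0.81 (exact permutation p = 0.0218, adjusted 0.454), with r = 0.54 without anti-Ang2 replicate 4 and IgG replicate 1. Jun with endothelial markers had r = 0.65 (exact permutation p = 0.0704, adjusted 0.558) and rho = 0.76 (exact permutation p = 0.0368, adjusted 0.454), with r = 0.74 without anti-Ang2 replicates 3 and 4. Jdp2 with melanocyte markers had r = -0.38 (exact permutation p = 0.321, adjusted 0.709) and rho = -0.79 (exact permutation p = 0.0279, adjusted 0.454), with r = -0.42 without IgG replicates 1 and 3. Relations to fibroblast and B cell markers were not tested.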

How the data were processed

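The authors deposited 1 normalized linear intensity per probe set and array, made from 250 ng of total RNA per tumour per the labels' protocols. Their background correction, summarization and normalization are not given in the sources used here. The deposited workbook also holds a ratio of group means and a p-value, which match the intensities and Welch's test on them. Of 24648 probe sets, 5 had missing values, 1389 had several symbols and were left out, and the names of 418 were not used here. Symbols were updated through Entrez IDs with RefSeq GRCm38.p6, changing 2270. The 22836 genes were fitted by limma 3.58.1 in R 4.3.3 (lmFit, eBayes; 4.86 prior and 6 residual degrees of freedom) on log2 intensities with no pseudocount, with Benjamini-Hochberg adjustment over all genes and a threshold of 0.05. The design had assumed values that might already be log2. Fits were tested on simulated data. The number of arrays limits the precision (median SE 0.108). No pair of arrays held identical values. Exact permutation tests are two-sided.

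Named genes are all members, up to 3 genes of each other list with the smallest p, and the 3 genes most like Atf3, Fos, Junb and Batf; predicted genes were skipped. Genes named outside this rule are marked as such, and some genes that counts and list summaries include are not reported here by name. Members and lists were chosen with earlier results of these data known. With Fosl1 not analysed, 8 rather than 9 comparisons of Atf3 and 36 rather than 45 pairs were made. Alternatives were other normalizations, filters, fits, blocks, a muscle covariate and each tumour left out. Tables and figures used Python 3.11.15, pandas 2.3.3 and matplotlib 3.10.9.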

Additional observations from a re-analysis of the deposited data

Results flagged for a closer look

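Within groups of 4 tumours, 176 sets of values, of the members, of gene list means and of other genes named by the rule or in the text, were screened for a tumour far from the other three, and 8 were found, where chance gives about 1 in 20. None of the 8 was an AP-1 family member. Mmp13 stood at 5.45 log2 units in IgG replicate 1, below the other IgG tumours at 5.85 to 5.90. The macrophage list mean was 8.28 in IgG replicate 1, above 7.53 to 7.66 in the other IgG tumours. Mrc1 stood at 8.06 in anti-Ang2 replicate 2, above 7.66 to 7.69 in the other anti-Ang2 tumours. The B cell list mean was 5.72 in anti-Ang2 replicate 1, against 5.66 in the others. Hmox1 stood at 9.14 in IgG replicate 4, above 8.81 to 8.84 in the other IgG tumours, and Mmp9 at 5.96 in the same tumour, above 5.60 to 5.64. Klf6 stood at 9.20 in IgG replicate 1, below 9.68 to 9.71. Hspa5 stood at 9.63 in anti-Ang2 replicate 4, above 9.02 to 9.07 in the other anti-Ang2 tumours.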

How the results depend on the processing

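No member passed an adjusted p of 0.05 in limma under any alternative, nor a threshold of 0.1, nor with the authors' deposited p-values after adjustment. The adjusted p of Atf3 ranged from 0.341 to 0.864 over the alternatives. The replicate numbers did not pair the tumours (correlations of deviations 0.06, -0.05, 0.07 and 0.08), and with a replicate block Atf3 stood at 1.03 and 3 members had an unadjusted p under 0.05, as without it. The count of all genes past the threshold was 0 to 1 (1 without anti-Ang2 replicate 2) and the count of members at an unadjusted p under 0.05 was 2 to 4 with 1 tumour left out, where the median difference of the members was 0.15 to 0.25. Signs turned for Fosb (-0.01 to 0.15) and Jdp2 (-0.09 to 0.13, including -0.04) with a tumour left out, and for Jdp2 at -0.06 within tumours numbered above 10, and for Batf at 0.08, Fosb at -0.02 and Junb at -0.26 within those up to 10, which hold 1 anti-Ang2 tumour. The cause was not tested. With 4 arrays per group, the Atf3 interval spans 0.49 to 1.56 log2 units.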
